A study of Mus musculus with 6 samples.

Results

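The genes described here are the fatty acid elongases and desaturases of mouse liver: Elovl1, Elovl2, Elovl3, Elovl5, Elovl6, Scd1, Scd2, Fads1, Fads2 and Fads3. Every array probeset annotated to exactly 1 of these symbols was taken, which gave 24 of 45037 probesets and 10 of 18193 named genes. The tissue was liver of 3 KRAP-/- mice and of their 3 wild-type littermates, each at an age of 32 weeks and on normal chow, with 1 array of the type Affymetrix Mouse Genome 430 2.0 per mouse. KRAP is a cytoskeleton-associated protein, listed in the annotation as Itprid2, and the KRAP-/- line carries a neomycin resistance cassette in place of a stretch of its exons in every tissue, so a difference in liver is not tied to loss of KRAP in liver cells. The line came from targeted embryonic stem cells and was kept on a C57BL6/J background, and wild-type littermates came from the same litters without the deletion. The methods do not give the sex of these mice. Xist read 66.3 to 85.6 and the 9 probesets of Y-linked genes at most 0.526 on any array, so the animals read as female.

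A fatty acid made in the liver leaves fatty acid synthase mainly as palmitate, and its final length and number of double bonds are set afterwards in the endoplasmic reticulum. Elongases of the Elovl family carry out the condensation step that adds carbon from malonyl-CoA to an acyl-CoA, each with its own range of substrates. Desaturases insert double bonds with electrons passed on by cytochrome b5 and its reductase. The Scd enzymes act on saturated chains, and Fads1 and Fads2 act on the polyunsaturated chains that come from dietary linoleate and linolenate. In liver many of these genes are known targets of the transcription factors SREBP-1c, ChREBP, LXR and PPAR alpha.

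The start regions of the genes are shown first, since several genes of the family differed in the same direction between the genotypes. RefSeq promoter windows of the build GRCm38.p6, 250 bases before to 50 bases after a start, were matched for 6 of the 10 genes, with 8 windows in all. Elovl6 and Elovl1 are shown because their brightest probesets fell, Fads2 because its littermate pairs differed among themselves, and Elovl5 because its values did not pass the test. Capitals mark matches, on either strand, to the CCAAT box, to the E-box letters CACGTG, to the Sp1 box letters GGGCGG or to TCACNCCAC, which is a form of the SREBP element.
Elovl6 promoter, chr3:129532136-129532435, plus strand: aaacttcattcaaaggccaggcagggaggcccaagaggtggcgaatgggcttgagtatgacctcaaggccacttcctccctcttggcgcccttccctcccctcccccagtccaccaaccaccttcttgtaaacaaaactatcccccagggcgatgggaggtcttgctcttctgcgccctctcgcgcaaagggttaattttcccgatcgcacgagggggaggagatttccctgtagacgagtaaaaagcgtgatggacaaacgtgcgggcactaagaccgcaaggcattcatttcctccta
Elovl1 promoter, chr4:118427843-118428142, plus strand: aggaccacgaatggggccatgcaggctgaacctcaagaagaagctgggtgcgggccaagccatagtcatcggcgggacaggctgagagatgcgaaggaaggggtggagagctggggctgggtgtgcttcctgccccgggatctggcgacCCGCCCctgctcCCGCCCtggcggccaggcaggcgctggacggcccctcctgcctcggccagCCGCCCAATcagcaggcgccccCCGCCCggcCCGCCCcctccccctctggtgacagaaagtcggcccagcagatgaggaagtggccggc
Fads2 promoter, chr19:10101454-10101753, minus strand: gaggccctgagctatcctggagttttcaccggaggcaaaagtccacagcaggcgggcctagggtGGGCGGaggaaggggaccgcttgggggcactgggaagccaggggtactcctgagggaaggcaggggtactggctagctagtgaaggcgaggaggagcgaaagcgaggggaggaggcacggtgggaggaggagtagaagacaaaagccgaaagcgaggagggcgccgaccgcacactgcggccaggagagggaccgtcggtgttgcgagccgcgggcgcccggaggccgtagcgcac
Elovl5 promoter, chr9:77917115-77917414, plus strand: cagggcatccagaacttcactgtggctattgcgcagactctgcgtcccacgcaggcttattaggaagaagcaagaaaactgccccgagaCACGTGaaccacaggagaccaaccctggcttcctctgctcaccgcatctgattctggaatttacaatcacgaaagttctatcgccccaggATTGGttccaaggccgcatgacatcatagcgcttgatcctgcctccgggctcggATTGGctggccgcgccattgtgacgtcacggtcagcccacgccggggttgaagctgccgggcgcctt
The Elovl6 window held none of these letters. The Elovl1 window held 5 matches to GGGCGG and 1 to CCAAT, which overlaps a GGGCGG match 39 bases before the start, and a second Elovl1 window held 2 matches to GGGCGG. The Fads2 window held 1 GGGCGG match, 186 bases before the start, and the Elovl5 window held CACGTG 161 bases before the start and CCAAT at 71 and 17 bases. No window of the 6 genes held TCACNCCAC, which 1.24% of 32851 promoter windows of this length held. CCAAT was held by 37.4%, GGGCGG by 35.7% and CACGTG by 7.15% of them. A match is a string of letters and not a bound site.

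Signals are linear intensities divided by the median of all probesets of the same array, so a value of 1 is the array median. A change is the log2 fold change of KRAP-/- over wild-type from limma, fitted over the 28531 probesets whose mean was 0.5 or more and with a block for the littermates, and a probeset counts as called when its Benjamini-Hochberg adjusted p was under 0.05 over all of them. Levels of different probesets are not comparable, and fewer cells of a type cannot be told apart from less RNA per cell in whole tissue. The array medians were 20.2 to 23.4 in KRAP-/- liver and 19.1 to 22.6 in wild-type liver, and the number of arrays limits the precision.

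Of the 24 probesets, 23 were tested. In KRAP-/- liver 8 were lower and 0 were higher than in wild-type liver, against 0.978% of all tested probesets called lower and 0.431% called higher. These calls all need the filter on dim probesets and the intensity trend of the fit: without either of them 0 of the probesets, and 0 of all probesets of the array, were called. Over all tested probesets 279 were lower and 123 higher, with 205 lower and 170 higher for the values as deposited and 208 lower and 151 higher after quantile normalization. The 8 belonged to Elovl6, Scd1, Elovl1, Fads2 and Fads1, and at an unadjusted p under 0.05 there were 14 lower, against 9.3% of all tested probesets, and 0 higher, against 5.58%. At the brightest probeset of each gene, 4 of 10 genes were lower, namely Elovl6, Scd1, Elovl1 and Fads1, against 1.31% of 13217 named genes called lower, 0 were higher, against 0.333%, and the median log2 fold change of the 10 was −0.61 against −0.08 for all named genes. All 3 KRAP-/- values lay below all 3 wild-type values in 14 of the 23 probesets, against 12.3% of all tested probesets, and lay above them in 0, against 7.8%. The KRAP-/- liver was below its littermate in 3 of 3 pairs at 16 probesets, against 22.4% of tested probesets, and above it in 3 of 3 pairs at 1, a dim Scd2 probeset, against 15.3%. A littermate ratio no higher than 1/1.5 in every pair, the filter that the study's methods state, was met by 4 probesets, 2 of Elovl6 and 1 each of Scd1 and Elovl1, against 1.38% of tested probesets, and a ratio of 1.5 or more was met by 0, against 1.12%.

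**Figure D1:**
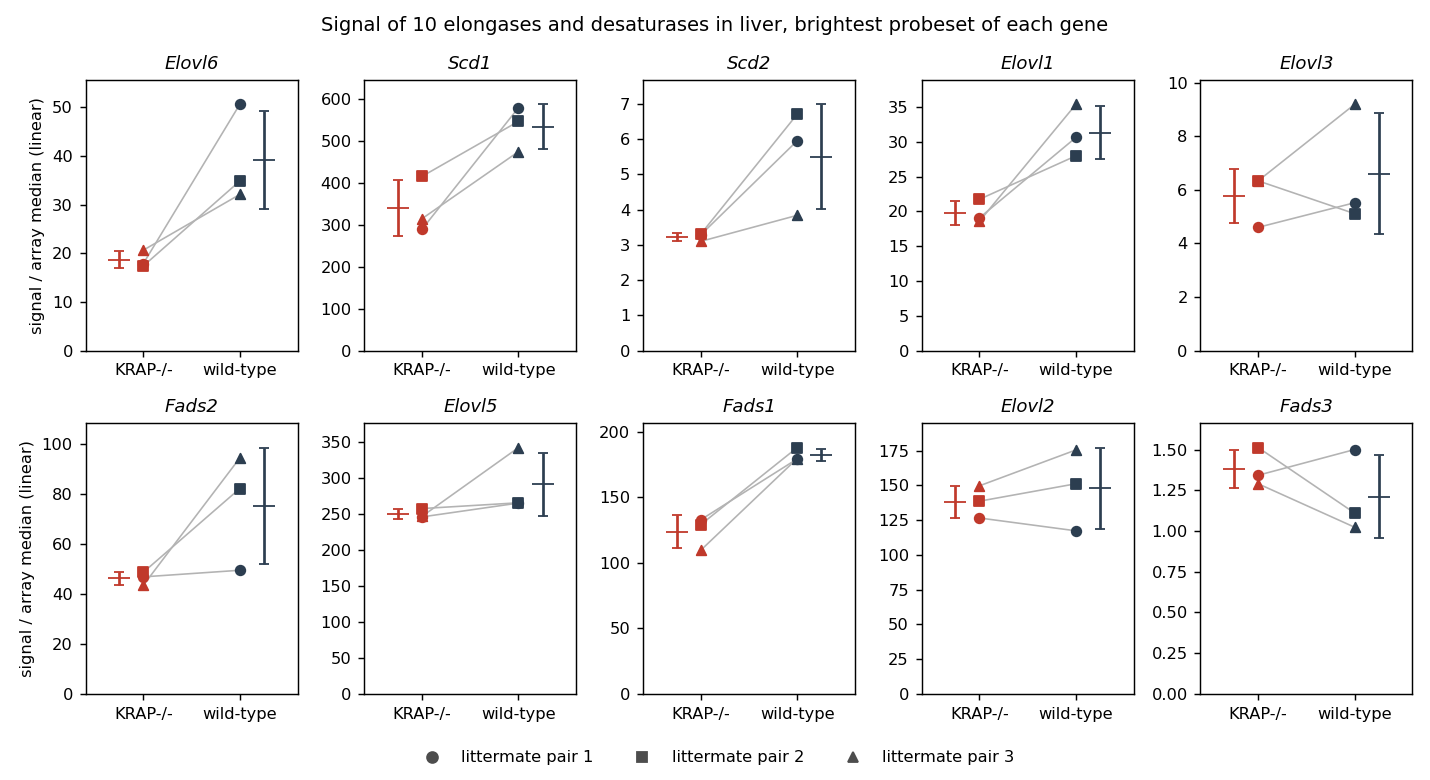
Signal over array median (linear axis from 0) of each gene at its brightest probeset, with KRAP-/- liver on the left and wild-type liver on the right of each panel, lines joining littermates, and bars giving mean ± SD (n = 3). The groups do not overlap in Elovl6, Scd1, Scd2, Elovl1, Fads2, Elovl5 and Fads1, and they overlap in Elovl3, Elovl2 and Fads3.

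The largest falls were those of the dimmer Scd1 probeset and the brighter Elovl6 probesets, whose enzymes act on saturated and monounsaturated chains. A difference between these enzymes and those of the polyunsaturated route was not tested. Elovl6, which elongates palmitate to stearate and palmitoleate to vaccenate, had signals of 17.9, 17.4 and 20.6 in KRAP-/- livers of pairs 1, 2 and 3, against 50.5, 34.8 and 32.1 in their wild-type littermates. The KRAP-/- livers lay close together and every wild-type liver was above them, with the wild-type liver of pair 1 the highest. The log2 fold change was −1.05 (standard error 0.15, 95% interval −1.38 to −0.71, adjusted p = 0.0114 from limma), and KRAP-/- liver averaged 18.6 ± 1.74, wild-type liver 39.1 ± 9.97 (SD, n = 3 each). A second Elovl6 probeset changed by −1.06 (adjusted p = 0.0078). The third and dimmest read 2.63, 2.01 and 1.90 in KRAP-/- livers and 5.65, 3.42 and 2.74 in wild-type livers, which did not overlap, and its change of −0.80 did not pass (adjusted p = 0.0883). It passed without pair 3 (−0.94, adjusted p = 0.0479), but not without pair 1 (−0.65, adjusted p = 0.326) or pair 2 (−0.82, adjusted p = 0.118). Any fit on 2 pairs takes its spread mostly from other probesets, so a lower adjusted p there is no stronger evidence.

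Scd1, the main stearoyl-CoA desaturase of adult liver, makes palmitoleate and oleate from their saturated precursors. Its brighter probeset read 290, 416 and 315 in KRAP-/- livers, against 580, 548 and 475 in wild-type livers. The groups did not overlap, and the KRAP-/- liver of pair 2 was nearest to the wild-type range. The change was −0.66 (standard error 0.11, 95% interval −0.91 to −0.41, adjusted p = 0.0253), and with the values as deposited, without division by the array median, it was −0.61 and did not pass (adjusted p = 0.0716).

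The dimmer Scd1 probeset fell further, with 16.8, 32.2 and 20.5 in KRAP-/- livers against 77.9, 68.0 and 44.4 in wild-type livers. The log2 fold change was −1.47 (standard error 0.19, 95% interval −1.90 to −1.03, adjusted p = 0.00862), the largest among the probesets of these genes. In each of the 3 pairs the fall was greater at the dimmer than at the brighter probeset of Scd1, by −0.81 ± 0.36 on the log2 scale (SD, n = 3 pairs). An exact sign-flip test of that difference, 2-sided, gave p = 0.25, the smallest that 3 pairs allow. In all, 4 such comparisons were made, and they were not part of the plan.

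Scd2, the isoform best known from brain and from the liver before adulthood, was dim. Its brightest probeset read 3.28, 3.30 and 3.10 in KRAP-/- livers, against 5.95, 6.70 and 3.84 in wild-type livers. The groups did not overlap, but the wild-type liver of pair 3 was close to the KRAP-/- livers, and the change of −0.73 (95% interval −1.13 to −0.32) did not pass (adjusted p = 0.0963). The call hinged on which pair was dropped: the fit lacking pair 3 gave −0.94 and passed (adjusted p = 0.0194). Smaller falls came from the fits lacking pair 1 (−0.66, adjusted p = 0.221) and pair 2 (−0.58, adjusted p = 0.266), and neither was a call. The other two Scd2 probesets, with group means from 0.595 to 1.58, gave −0.75 (adjusted p = 0.345) and 0.35 (adjusted p = 0.783), so the probesets of Scd2 did not point one way.

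Elovl1 makes very long saturated and monounsaturated chains, which enter sphingolipids. At its brightest probeset the KRAP-/- livers had 19.1, 21.7 and 18.6, against 30.6, 27.98 and 35.4 in wild-type livers. Each KRAP-/- liver was well below the lowest wild-type liver, and the log2 fold change was −0.66 (standard error 0.12, 95% interval −0.93 to −0.39, adjusted p = 0.0338). A further probeset with 11.5, 13.2 and 12.4 in KRAP-/- livers and 20.1, 19.8 and 21.8 in wild-type livers changed by −0.74 (adjusted p = 0.0119). This probeset had the tightest groups of the gene.

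The second brightest Elovl1 probeset did not overlap between the groups, with −0.59 and adjusted p = 0.0524. It passed without pair 2 (−0.74, adjusted p = 0.00399), but not without pair 1 (−0.48, adjusted p = 0.137) or pair 3 (−0.54, adjusted p = 0.068). The dimmest, near the array median, gave 0.10 (adjusted p = 0.939). Of the 4 Elovl1 probesets, 3 are of a class that may bind more than the named gene, among them the brightest, and the gene overlaps Cdc20 in the annotation. The part of such binding in the values was not tested, and the probeset outside that class is the one with the tightest groups.

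Elovl3, an elongase of saturated and monounsaturated chains that is induced in cold-exposed brown fat and follows the clock in mouse liver, showed no such pattern. Its probeset read 4.601, 6.33 and 6.34 in KRAP-/- livers and 5.52, 5.11 and 9.19 in wild-type livers. The groups overlapped and the KRAP-/- liver was higher in pair 2 and lower in pairs 1 and 3. The change was −0.16 (95% interval −0.56 to 0.23, adjusted p = 0.71), and 0.02 without pair 3. Of 11 clock genes, 0 were called higher and 0 lower, with a median of 0.06 and with 3 lower and 2 higher at an unadjusted p under 0.05. The largest of their changes, −0.71 for Npas2 and 0.68 for Per3, did not pass (adjusted p = 0.281 and 0.322). These values compare the genotypes, and differences between littermate pairs in the clock genes were not tested.

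**Figure D2:**
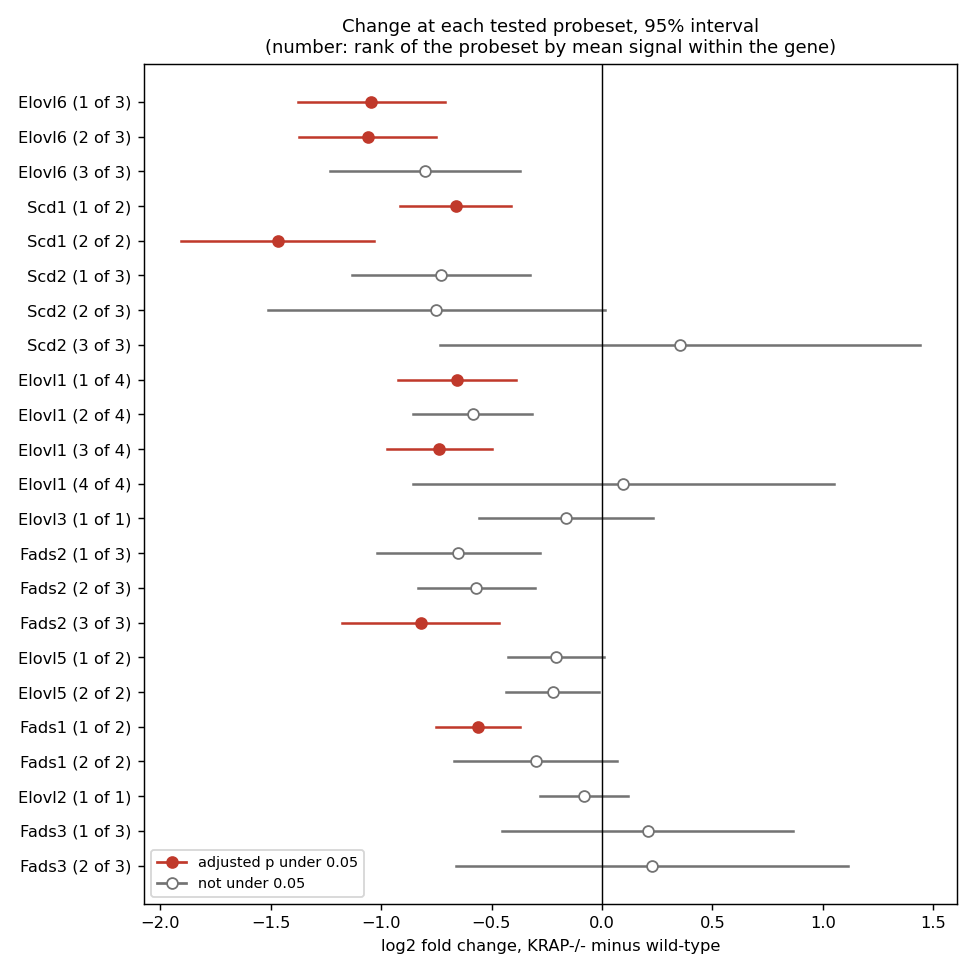
Log2 fold change of KRAP-/- over wild-type at each of the 23 tested probesets, with 95% intervals, filled where the adjusted p was under 0.05, and with probesets of a gene ranked by mean signal. The 8 filled points lie between −1.47 and −0.56, and the 4 points to the right of 0 belong to the dimmest Scd2 and Elovl1 probesets and to Fads3.

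The enzymes of the polyunsaturated route alternate desaturation and elongation. Fads2 carries out the opening desaturation of linoleate and linolenate, which is regarded as the slow step of the route. Its brightest probeset read 46.7, 48.6 and 43.4 in KRAP-/- livers, against 49.4, 82.0 and 94.2 in wild-type livers. The KRAP-/- livers lay within a narrow range, and the wild-type liver of pair 1 stood just above it, far from the other 2 wild-type livers. The ratios within pairs 1, 2 and 3 were 0.947, 0.592 and 0.461. The change of −0.65 (95% interval −1.02 to −0.28) did not pass (adjusted p = 0.103), and without pair 1 it was −0.94 (adjusted p = 2.4e-04).

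A second Fads2 probeset gave the same order of the pairs, with 37.0, 45.0 and 43.7 in KRAP-/- livers and 43.8, 68.3 and 79.6 in wild-type livers. Here the groups overlapped and the change was −0.57 (adjusted p = 0.0552), which passed without pair 1 (adjusted p = 0.00213) and without pair 2 (adjusted p = 0.0485). Without pair 3 it did not pass (−0.42, adjusted p = 0.0867). The dimmest Fads2 probeset, which may bind more than the named gene, was called lower (−0.82 on the log2 scale, adjusted p = 0.0432). It read 5.10, 7.16 and 5.80 in KRAP-/- livers and 8.71, 9.85 and 13.6 in wild-type livers, and did not pass without pair 3 (−0.62, adjusted p = 0.068), after quantile normalization (−0.76, adjusted p = 0.064) or without the block (adjusted p = 0.061). Fads2 was therefore called at 1 of 3 probesets only.

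Elovl5 elongates the products of Fads2. It read 246, 257 and 246 in KRAP-/- livers and 265, 265 and 342 in wild-type livers at its brighter probeset. The groups did not overlap, yet only the wild-type liver of pair 3 stood apart, and the change of −0.21 did not pass (95% interval −0.43 to 0.01, adjusted p = 0.358). Its other probeset gave −0.22 (95% interval −0.43 to −0.01, adjusted p = 0.307). Both intervals reach down to −0.43 and no further.

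Fads1 completes arachidonate and eicosapentaenoate. Its brighter probeset had 133, 129 and 110 in KRAP-/- livers, against 179, 188 and 179 in wild-type livers. The wild-type livers were nearly equal, all KRAP-/- livers were below them, and the KRAP-/- liver of pair 3 was the lowest. The fall was 0.56 on the log2 scale with a standard error of 0.08 (adjusted p = 0.0152), and KRAP-/- liver averaged 124 ± 12.5, wild-type liver 182 ± 4.91 (SD, n = 3 each). With the values as deposited the change was −0.51 and did not pass (adjusted p = 0.0627). The dimmer Fads1 probeset overlapped between the groups and gave −0.30 (adjusted p = 0.437). The brighter one had the greater fall in 3 of 3 pairs, by −0.26 ± 0.21 (SD), with an exact p = 0.25, again the smallest possible.

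Elovl2 elongates the longest polyunsaturated chains on the way to docosahexaenoate. It had 127, 139 and 150 in KRAP-/- livers and 117, 151 and 175 in wild-type livers. The KRAP-/- values lay within the wild-type range, and the change was −0.08 (95% interval −0.28 to 0.12, adjusted p = 0.715). In each pair Elovl6 had the lower ratio of the genotypes, by −0.96 ± 0.61 on the log2 scale against Elovl2 and by −0.84 ± 0.62 against Elovl5 (SD, n = 3 pairs, exact p = 0.25 for each, the smallest possible). These comparisons were not planned, and Elovl6 had the largest fall of the genes at their brightest probesets. The lower ratio follows in part from that choice and is not a test of a difference between the genes.

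Fads3, known for putting a double bond into sphingoid bases, was near the array median. Its brightest probeset read 1.34, 1.51 and 1.29 in KRAP-/- livers and 1.5001, 1.11 and 1.02 in wild-type livers. These overlapped, and the change of 0.21 did not pass (adjusted p = 0.792). A second probeset gave 0.23 (adjusted p = 0.833), but −0.26 without pair 3. The third read at most 0.0932 on any array and was not tested. Fads1, Fads2 and Fads3 lie next to each other on chromosome 19, and they were called lower at 1 of 2, 1 of 3 and 0 of 2 tested probesets.

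**Figure D3:**
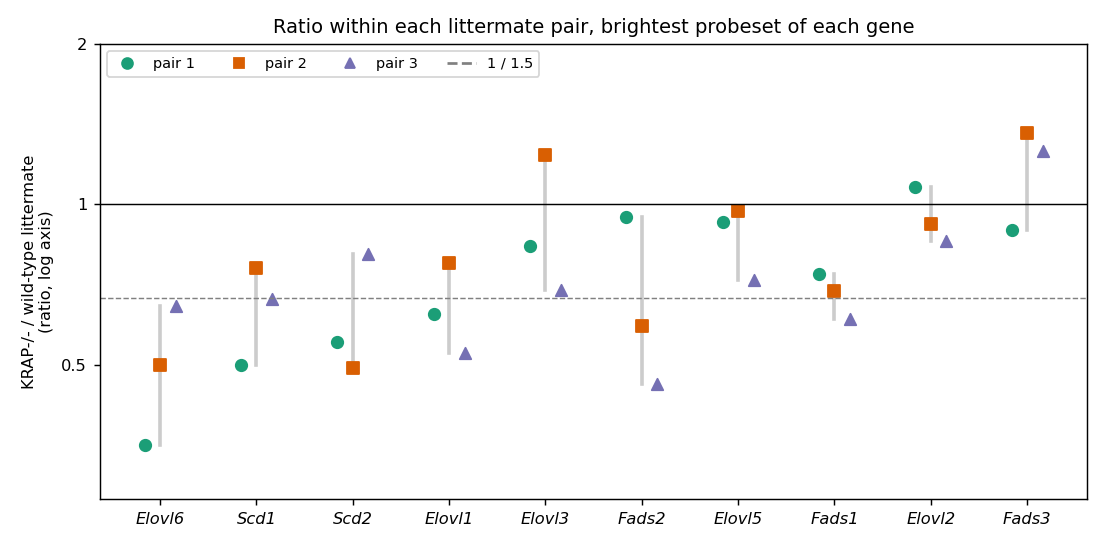
Ratio of KRAP-/- over wild-type littermate (log axis) at the brightest probeset of each gene, 1 symbol per littermate pair, with a dashed line at 1/1.5. All 3 pairs of Elovl6 lie below the dashed line, from 0.354 to 0.644, whereas the pairs of Fads2 run from 0.461 to 0.947.

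The wild-type livers differed among themselves, and not in the same order for every gene. Elovl6 and Scd1 were highest in the wild-type liver of pair 1, where Elovl6 read 50.5 and the brighter Scd1 probeset 580. Fads2, Elovl5, Elovl2, Elovl3 and Elovl1 were highest in the wild-type liver of pair 3, at 94.2, 342, 175, 9.19 and 35.4 at their brightest probesets. The smallest ratio of KRAP-/- over wild-type was in pair 1 for Elovl6 and Scd1, and in pair 3 for Fads2, Elovl5, Fads1, Elovl2, Elovl3 and Elovl1.

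Markers of fat cells moved with pair 1. Adipoq, the fat cell hormone adiponectin, read 0.144, 0.0318 and 0.253 in KRAP-/- livers and 2.20, 0.694 and 0.444 in wild-type livers. Ucp1, the uncoupling protein of brown fat, read 0.176, 0.117 and 0.0616 in KRAP-/- livers and 2.35, 0.235 and 0.443 in wild-type livers. The wild-type liver of pair 1 was thus the highest in both, as it was in Elovl6 and Scd1. The summed level of the 4 adipocyte markers with a probeset was 8.56 to 11.5 in KRAP-/- liver and 8.60 to 26.2 in wild-type liver. That of the 3 brown fat markers was 8.70 to 9.50 in KRAP-/- liver and 7.19 to 15.1 in wild-type liver. Most of each sum came from 1 gene, Fabp4 and Ppargc1b, so the sums do not measure fat cells. Ppargc1b read 8.11, 8.33 and 9.20 in KRAP-/- livers and 11.3, 9.55 and 6.62 in wild-type livers. Of the 5 markers tested by limma, 0 were called, with 1 lower at an unadjusted p under 0.05.

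Without pair 1 the change of Elovl6 was −0.82 (adjusted p = 0.00381). The brighter and the dimmer Scd1 probeset then changed by −0.49 (adjusted p = 0.00372) and −1.10 (adjusted p = 6.24e-05). With all pairs the changes were −1.05, −0.66 and −1.47, each a larger fall. A fit on pairs 2 and 3 alone takes its spread mostly from other probesets, so its lower adjusted p-values are no stronger evidence. Adipoq and Ucp1 were lower in the KRAP-/- liver in pairs 2 and 3 as well, with ratios of 0.0458 and 0.570 for Adipoq and 0.5003 and 0.139 for Ucp1. All their KRAP-/- values lay under 0.526, the highest value of the Y-linked probesets, so these ratios compare signals near background. In pair 3 the brightest probesets of Fabp4, Retn, Cidea and Ppargc1b were higher in the KRAP-/- liver, with ratios of 1.31, 3.86, 1.79 and 1.39. Lep was lower there (0.435). The part of fat cells in the results was not tested. Of 6 Kupffer cell and macrophage markers, Clec4f was lower (−0.54, adjusted p = 0.0255) and 0 were higher, with a median of −0.48. At an unadjusted p under 0.05, 4 of the 6 were lower, and the groups did not overlap in 4. On the undivided signals Clec4f was not called (adjusted p = 0.0705). Their summed level was 132 to 145 in KRAP-/- liver and 159 to 188 in wild-type liver, and their part in the results was not tested. Of 5 stellate cell, 5 endothelial, 4 cholangiocyte and 2 lymphocyte markers tested by limma, 0 were called, and 1 each of the stellate cell and lymphocyte markers was lower and 1 stellate cell marker higher at an unadjusted p under 0.05. Of 6 hepatocyte markers 0 were called at their brightest probesets, with sums of 3165 to 3590 in KRAP-/- liver and 3244 to 3300 in wild-type liver. At an unadjusted p under 0.05, 1 of them, Apob, was higher (0.22), and a dimmer Apob probeset was called higher (1.65, adjusted p = 0.0323). The only KRAP probeset read 21.6, 21.3 and 19.99 in KRAP-/- livers and 23.9, 24.5 and 22.3 in wild-type livers (adjusted p = 0.442), and the sources used here do not place it relative to the deleted exons, so it checks nothing.

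The genes around these enzymes are given from lists, each gene at its brightest probeset. The supply of malonyl-CoA and palmitate showed the lowest median of these lists, −0.96, with 6 of 10 genes lower, 0 higher and 4 not called. Acacb, the mitochondrial acetyl-CoA carboxylase, changed by −1.92 (adjusted p = 0.00288). Acss2, the acetyl-CoA synthetase of the cytosol, changed by −1.82 and fatty acid synthase, Fasn, by −1.49 (adjusted p = 8.6e-04 each). Thrsp, a lipogenic protein that responds to thyroid hormone, gave −1.50 (adjusted p = 0.00862), and failed the test when the block was left out (adjusted p = 0.0595).

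Electrons reach the desaturases through cytochrome b5. Of 5 tested genes of this supply, 2 were lower, 0 higher and 3 not called, with a median of −0.18. Cyb5r3, the main cytochrome b5 reductase, read 102, 98.6 and 93.1 in KRAP-/- livers and 178, 151 and 139 in wild-type livers (−0.66, adjusted p = 0.00647), and 3 of its 4 probesets were lower. Cyb5b, the cytochrome b5 of the outer mitochondrial membrane, changed by −0.52 (adjusted p = 0.0184) and all 3 of its probesets were lower. With the values as deposited its brightest probeset did not pass (−0.47, adjusted p = 0.0784). Cyb5a, the form of the endoplasmic reticulum that serves the desaturases, was not among the genes called, with 0.09 (adjusted p = 0.656).

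The other steps of the elongation cycle gave 0 of 6 genes called by limma at their brightest probesets, 2 lower at an unadjusted p under 0.05, and a median of −0.17. Tecr, the reductase that ends each round, read 90.7, 94.3 and 83.3 in KRAP-/- livers and 123, 114 and 113 in wild-type livers. These did not overlap, with −0.39 and adjusted p = 0.06, and its dimmer probeset passed with −0.43 (adjusted p = 0.046) but not without pair 1, 2 or 3 (adjusted p = 0.0907, 0.058 and 0.0711), with the values as deposited (0.144), after quantile normalization (0.0785) or without the block (0.054). Hacd1, a dehydratase of the cycle, gave −0.24 (adjusted p = 0.269). Among the remaining family genes, 0 of 4 tested were called, with 1 lower at an unadjusted p under 0.05, and the largest change, −1.63 for Scd3, did not pass (adjusted p = 0.399) at signals of at most 1.33 on any array. Elovl7 gave −0.21 (adjusted p = 0.894).

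Of 9 tested acyl-CoA synthetases and acyl exchange enzymes, 2 were lower, 0 higher and 7 not called, with a median of −0.05. Acsl3 changed by −0.84 (adjusted p = 0.00993) and Acsl5 by −0.45 (adjusted p = 0.0261), both synthetases of long-chain acyl-CoA. Acsl5 lost its call when pair 2 was left out (adjusted p = 0.0638) and with the values as deposited (adjusted p = 0.157).

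Of 11 tested regulators, 1 was lower, 0 higher and 10 not called, with a median of −0.25 and with 6 lower and 1 higher at an unadjusted p under 0.05. The gene called was Mlxipl, which encodes ChREBP, a glucose-responsive activator of lipogenic genes, with 41.9, 39.6 and 39.9 in KRAP-/- livers and 78.5, 68.1 and 57.5 in wild-type livers. The groups did not overlap and the change was −0.74 (adjusted p = 0.00845). Srebf1, the gene of SREBP-1c, had 94.4, 68.8 and 61.5 in KRAP-/- livers and 126, 83.1 and 70.7 in wild-type livers, which overlapped, and its change of −0.30 did not pass (adjusted p = 0.142). Srebf2, the gene of the sterol-responsive SREBP-2, read 6.22, 6.10 and 6.06 in KRAP-/- livers and 10.1, 8.36 and 9.43 in wild-type livers. These did not overlap, and its change of −0.60 did not pass (adjusted p = 0.0586), though it did without the block (adjusted p = 0.0441). Ppara, the gene of PPAR alpha, differed the other way, with 96.1, 91.98 and 83.1 in KRAP-/- livers and 38.1, 58.7 and 75.02 in wild-type livers. The groups did not overlap, the change of 0.71 did not pass (adjusted p = 0.105), and it passed without pair 2 (adjusted p = 0.0254) and without pair 3 (0.99, adjusted p = 0.00299). Srebf1, Srebf2 and Ppara are named here after their values were seen.

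**Figure D4:**
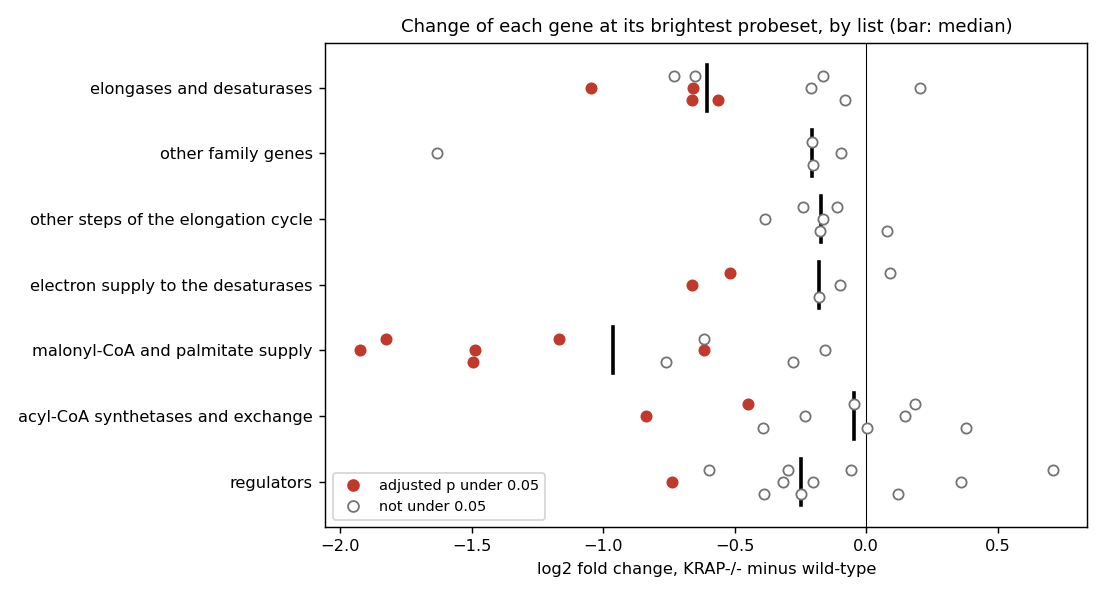
Log2 fold change of KRAP-/- over wild-type of each tested gene at its brightest probeset, by gene list, filled where the adjusted p was under 0.05, with a bar at the median of the list. The bars of the elongases and desaturases (−0.61) and of the malonyl-CoA and palmitate supply (−0.96) lie lowest of the 7 lists shown.

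The genes whose log2 signal followed Elovl6 most closely over the 6 arrays were Commd6 (Pearson r = 0.997), Klhdc2 (0.997), Cisd1 (0.996), Prpsap2 (0.993) and Abcb11 (0.993). Of these, Cisd1 (−0.70, adjusted p = 0.0224) and Abcb11 (−0.47, adjusted p = 0.0456) were called lower, Abcb11 not without pair 1 (adjusted p = 0.0758) or pair 2 (0.0926), with the values as deposited (0.19) or after quantile normalization (0.0554), and Commd6, Klhdc2 and Prpsap2 were not called. For Scd1 they were Btbd2 (0.997), Gm9706 (0.992), Gramd3 (0.991), Shc1 (0.988) and Anapc15 (0.988), none of them called, with adjusted p-values of 0.0849 to 0.521. These values are descriptions over 6 arrays of 2 genotypes, and genes were ranked among all named probesets with a mean of at least 1.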

How the data were processed

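RNA from the livers of 6 mice, 3 KRAP-/- and 3 wild-type, was labelled with biotin and hybridized to 1 array each. The intensity values the authors deposited are linear probeset signals from the software GCOS, whose version is not given in the sources used here. They are not log-transformed, and the per-chip normalization to the 50th percentile named in the methods is not in them. Each signal was therefore divided by the median of its array over 45101 probesets, and 64 control probesets were then left out. For the test, values under 0.1 were raised to 0.1 before the log2 was taken, and probesets with a mean under 0.5 were left out. The fit used limma 3.58.1 in R 4.3.3, in which littermates formed a block and variances were moderated along the mean signal. P-values were adjusted by Benjamini-Hochberg, and an adjusted p under 0.05 counted as a call. The pairing comes from the littermates of the methods, and the correlations between littermates of deviations from the genotype means were 0.043, 0.0095 and −0.012.

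Symbols came from the platform annotation, in which 34945 probesets had 1 symbol, 932 several and 9160 none. A gene is given at its brightest probeset, that with the highest mean over all 6 arrays, and otherwise with every probeset. Named are all members, and of each list at most 4 called genes, or the 2 most changed ones where none was called, and the 5 genes most like Elovl6 and Scd1. The members and lists were chosen with earlier results of these data known. Counts of calls, members and genes named by the rule were recomputed with undivided signals, with quantile-normalized signals, with a floor of 0.01 or a pseudocount of 0.25, with a minimum mean of 1 or none, without the block, without the trend of variance on signal, without probesets that may cross-hybridize, with 2-fold in place of 1.5-fold, and without pair 1, 2 or 3. The other named genes and the differences between probesets were recomputed in the same way, which was chosen after seeing the data. The correlations over arrays were not recomputed. The fit was run on simulated data, with normal noise of the spread that the fit itself estimated and no differences between littermate pairs. That run cannot show whether the intensity trend or the filter is right for these data. Further software was Python 3.11.15, pandas 2.3.3, numpy 2.4.6, scipy 1.17.1 and matplotlib 3.10.9. Proteins were not compared here.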

Additional observations from a re-analysis of the deposited data

How the results depend on the processing

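Without the intensity trend or without the filter on dim probesets, limma called 0 of all probesets in either direction, with 3089 and 4551 probesets at an unadjusted p under 0.05, and so 0 probesets and 0 genes of the elongases and desaturases. The cause was not tested. Under the other alternatives 6 to 10 probesets were lower and 0 were higher. Of the probesets 23 were tested, but 21 with a minimum mean of 1 and 18 without probesets that may cross-hybridize. The values as deposited gave 2 genes lower at their brightest probeset, Elovl6 and Elovl1. The 1.5-fold rule gave 2 probesets with quantile normalization and 1 with a 2-fold limit. Leaving out a pair gave 9 to 10 probesets lower by limma, 4 to 5 genes, and 6 to 8 probesets by the 1.5-fold rule. With a pair left out the 1.5-fold rule has fewer ratios to meet, so its counts are not comparable with those from all pairs. Under these alternatives the shares over all probesets by the 1.5-fold rule and over all genes were not computed. By limma, leaving out a pair gave 288 to 469 lower and 123 to 295 higher over all probesets, against 279 lower and 123 higher with all pairs, the most without pair 3.

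Without the replicate block the counts of calls were 8 probesets and 4 genes lower, as with the pairing, and 255 lower and 93 higher over all probesets. The second Elovl1 probeset then passed (adjusted p = 0.0341) and the dimmest Fads2 probeset did not (adjusted p = 0.061).

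Among the 23 probesets of the elongases and desaturases and the 34 other named genes or probesets that were recomputed, 4 changed sign, none of them called. When pairs were left out in turn, the dimmest Elovl1 probeset ran between −0.34 and 0.53, Elovl3 between −0.40 and 0.024, a Fads3 probeset between −0.26 and 0.58 and Elovl7 between −0.54 and 0.40. The 4 differences between probesets stayed negative under every alternative run on them.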
